A study of Mus musculus with 5 samples.

Results

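The genes described here are those that stood at least 2-fold above or at least 2-fold below a control organoid on every one of 4 arrays of tumour-derived mouse gastric organoids. Gastric organoids are clusters of stomach epithelium grown in culture. Of 14581 genes whose spot was well above background on all 5 arrays, 578 met this rule, 254 higher and 324 lower in the tumour-derived samples. The rule itself uses the measured differences, so the size and direction of these genes' differences are given as description and are not tested.

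Each sample was 1 one-colour Agilent array of total RNA. The control was organoids of Trp53flox/flox mice carrying pLKO.1 and a luciferase hairpin (shLuc), collected before they were inoculated under the skin. The tumour-derived organoids all had Trp53 loss, combined with shCdh1 #1, shCdh1 #2, Apc580D or Pik3caH1047R. Values for the tumour arrays are given in that order throughout. All samples are labelled stomach and female, and 1 growth medium is given for all of them, with EGF, R-spondin1, Noggin, Y27632, Jagged-1 and the GSK-3 inhibitor CHIR-99021. The labels name no Trp53 loss for the control, and do not say whether the tumours grew from the control line, whether each was 1 clone, or how many animals were used. Trp53 loss, the second lesion, growth as a tumour and any difference of donor or line therefore cannot be told apart in these differences. The 4 differences share 1 control array, which has no replicate, so their agreement with one another is not independent evidence.

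A level below is the log2 signal of a spot minus the 75th percentile of its array, so 0 marks that percentile, and a difference of 1 is 2-fold. A mean fold is 2 raised to the mean of the 4 log2 differences, and SD is the standard deviation of those 4 differences (n = 4 tumour arrays). Between 61.8% and 65.3% of the 59305 spots per array were well above background, and the number of arrays limits the precision. The control and both shCdh1 samples shared slide 1 and the other tumours shared slide 2. Trp53 stood at 0.85 in the control and −5.07, −5.09, −5.86 and −4.86 in the tumours, with every tumour array far below the control (mean difference −6.07, or −4.16 with normexp background correction). Cdh1 was at 4.39 in the control, 0.07 and 0.26 with the hairpins, and 4.48 and 4.58 in the other tumours, so it is not among the 578 genes. Apc (−2.89 in the control, −3.36 to −2.97 in the tumours) and Pik3ca (3.40 and 1.45 to 2.97) were measured as transcripts only, which checks nothing about either lesion. On the Pik3caH1047R array Uty, Kdm5d, Eif2s3y and Ddx3y of the Y chromosome gave signal well over background and Xist did not, against its female label and unlike the other 4 arrays. Without that array the rule gave 277 higher and 356 lower genes, which include all 578.

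The stomach label was checked against 16 gastric epithelial markers, of which 15 were well above background on every array. Their summed signal was 9.80 on the log2 scale in the control and 9.20 to 9.68 in the tumour-derived samples. In the control Krt8, Krt18, Krt19 and Tff1 were the brightest and weigh most in that sum. Of the 15 measured markers, 13 had a mean difference below 0. Their median difference was −0.43, and −1.46 in Pik3caH1047R. Of 8 fibroblast markers 1 was above background on all 5 arrays, and Col3a1, Pdgfrb and Lum on none. Of 8 leukocyte markers Cd68, Itgam, Cd3e and Csf1r were well above background on all 5 arrays, with Cd68 at 2.51 in the control and 3.02 to 3.84 in the tumours, and Adgre1 and Lyz2 on none.

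As background, the stomach epithelium is renewed by progenitors that give rise to mucus-secreting pit and neck cells, acid-secreting parietal cells, enzyme-secreting chief cells and hormone cells. Epithelial cells also carry enzymes that oxidise foreign compounds, join them to glutathione, glucuronic acid or sulphate, and export them. Trp53 encodes p53, which activates genes of growth arrest and cell death. In bulk RNA, fewer cells of a type and less RNA per cell cannot be told apart.

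Higher genes made up 1.74% of the 14581 genes measured and lower genes 2.22%. Genes on the lists used below were called more often, with 80 higher and 91 lower among 1698 measured genes on any list. The lists were drawn up with earlier results of these data known. A list share above that of all genes is therefore description only. Scaling each array on its median, which moved the median difference of all genes from 0.03 to −0.11, gave 186 higher and 447 lower genes. A normexp background gave 137 and 231. It made the mean fold smaller by over 1.5 times for 23 of the 30 genes with the highest and lowest mean differences. The folds below are therefore those of the scanner's own background correction. Leaving out shCdh1 #1 gave 439 and 423. At least 4-fold on all 4 arrays was reached by 56 higher and 47 lower genes, at least 8-fold by 17 and 12, and at least 16-fold by 9 and 5. Protein-coding genes made up 243 of the higher and 292 of the lower genes, and lncRNAs 10 and 28. Spots of the higher genes were dim in the control, with a median level of −3.36, against 0.45 for the lower genes and 0.65 for all others. Just inside the threshold were Adam32 and Cep85, whose weakest array differed by 1.01 on the log2 scale, and Pisd-ps3 and Thap6 at 1.0. Just outside were Unc93a2 and Pdxk-ps, at 0.997 and 0.995 on their weakest array, and Acot2 and Sphk2, both at 0.996 in the lower direction.

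**Figure D1:**
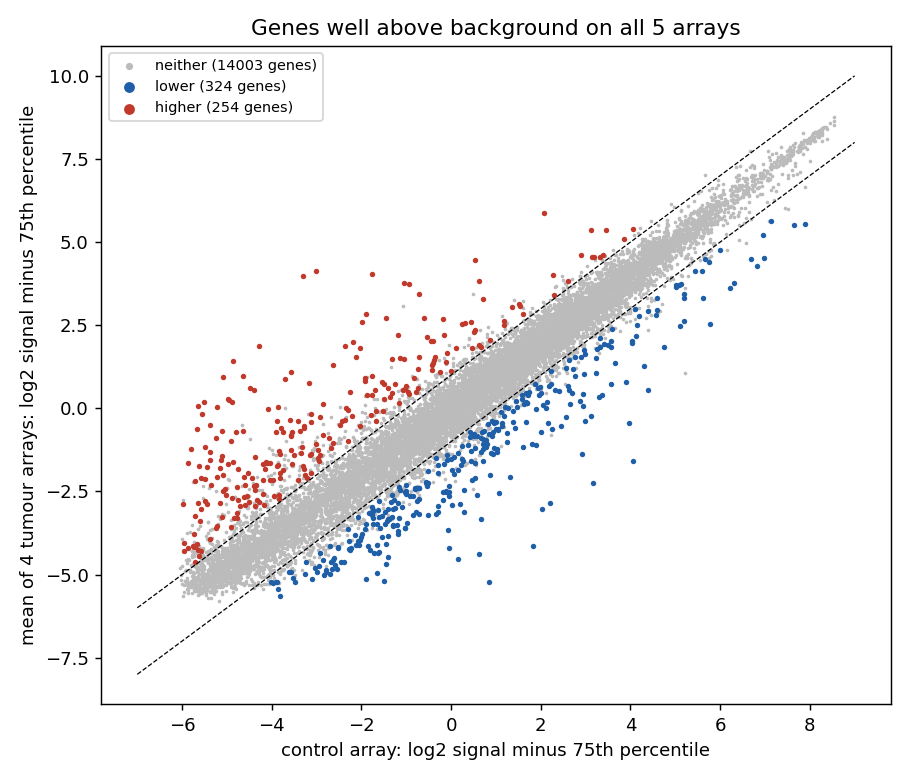
Level of each of 14581 genes in the control (x axis) against the mean of the 4 tumour arrays (y axis), both as log2 signal minus the array's 75th percentile. Dashed lines mark a mean difference of 2-fold. The 254 higher genes (red) lie mostly at the dim end of the control axis, with a median of −3.36, and the 324 lower genes (blue) spread along it with a median of 0.45.

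Genes that process foreign compounds formed the largest set among the lower genes outside p53 targets, by the 64 gene lists used. Of 70 measured genes of glutathione metabolism, the Nrf2 response and conjugation, 20 (28.6%) were lower on all 4 arrays and none was higher, and the list's median difference was −0.96 against 0.03 over all genes. Of 30 measured cytochrome P450 genes of families 1 to 4, which oxidise drugs and steroids, 8 were lower and none higher (median −0.34). Of 18 carboxylesterases and lipases, which cleave ester bonds, 6 were lower and none higher (median −0.83). The median of the first list was −0.80, −1.11, −0.95 and −0.70 on the tumour arrays, and leaving out Pik3caH1047R, which can only add genes, gave 24, 8 and 6 lower genes in these lists.

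Nr1i2 encodes PXR, a nuclear receptor that senses foreign compounds and activates Cyp2b, Cyp2c and conjugation genes. It stood at −0.05 in the control and −4.02, −4.12, −3.14 and −5.48 in the tumours, a mean 17.6-fold lower (SD 0.97), with a mean difference of −4.14, or −3.0 with normexp. Nfe2l2 encodes Nrf2, the transcription factor of the antioxidant response, and was at 5.07 in the control and 3.50, 3.95, 3.71 and 3.62 in the tumours. All 4 tumour arrays lay within a log2 unit of one another for Nfe2l2, a tighter spread than for Nr1i2. A further Nfe2l2 probe differed by a mean of −0.33, so the probes of this gene disagree on its size.

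Among cytochrome P450 genes the deepest differences were in Cyp2c65 and Cyp2c66, gastrointestinal members of the Cyp2c family. Cyp2c65 was at 3.17 in the control and 0.11, −4.66, −1.71 and −2.72 in the tumours, and Cyp2c66 at 2.20 in the control and −1.06, −4.31, −2.59 and −3.44 in the tumours. In both genes shCdh1 #1 was nearest the control and shCdh1 #2 farthest from it, 226-fold lower for Cyp2c65. Cyp2b10, a standard PXR and CAR target, was at 2.25 in the control and 0.89, −1.18, −0.14 and −2.10 in the tumours. Cyp2d26 (mean 7.36-fold lower), Cyp2d10 (6.71-fold), Cyp2c23 (6.01-fold), Cyp2d12 (5.93-fold) and Cyp2c29 (9.37-fold) completed the 8. Cyp2b9, outside the list, was 7.25-fold lower. By symbol, 9 of 39 measured Cyp genes were lower and none higher.

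Glutathione S-transferases, which attach glutathione to reactive compounds, were lower as a neighbourhood. Gstm1 was at 6.96 in the control and 5.60, 4.86, 5.23 and 5.16 in the tumours, and its neighbours Gstm2, Gstm3, Gstm4 and Gstm6 were a mean 2.77, 2.81, 3.82 and 3.47-fold lower. Gsta2 stood at 6.82 in the control and 4.88, 3.49, 4.21 and 4.53 in the tumours and Gsta4 at 5.43 in the control and 4.36, 4.13, 3.96 and 4.06 in the tumours. Probes of these closely related genes may pick up one another's transcripts, and a second Gstm6 probe differed by a mean of only −0.24. Nqo1, a quinone reductase and standard Nrf2 target, was at 2.11 in the control and −0.14, −0.91, 0.48 and 0.59 in the tumours, and Srxn1, which repairs oxidised peroxiredoxins, was a mean 3.13-fold lower. Aldh3a1, an aldehyde dehydrogenase, was at 5.19 in the control and 2.65, 2.94, 2.35 and 2.53 in the tumours, with the tumour arrays within 0.6 of one another (SD 0.25).

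Conjugation and export genes were also among the 20. Sult1b1, a sulphotransferase, was a mean 6.87-fold lower, Ugt2b35, a glucuronosyltransferase, 3.78-fold, and Abcc4, an export pump, 2.86-fold. The epoxide hydrolases Ephx1 and Ephx2 were 4.59 and 3.31-fold lower, and Ephx1 also stands on the list of p53 targets. Of the carboxylesterases, Ces2c was at 2.46 in the control and −0.07, −0.36, −0.20 and −1.56 in the tumours and Ces2b at 1.90 in the control and −0.48, −1.18, −0.60 and −2.14 in the tumours, with Pik3caH1047R lowest for both. Ces2g, Ces1d, Ces1e and the arylacetamide deacetylase Aadac were 3.67, 4.91, 4.09 and 6.45-fold lower.

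**Figure D2:**
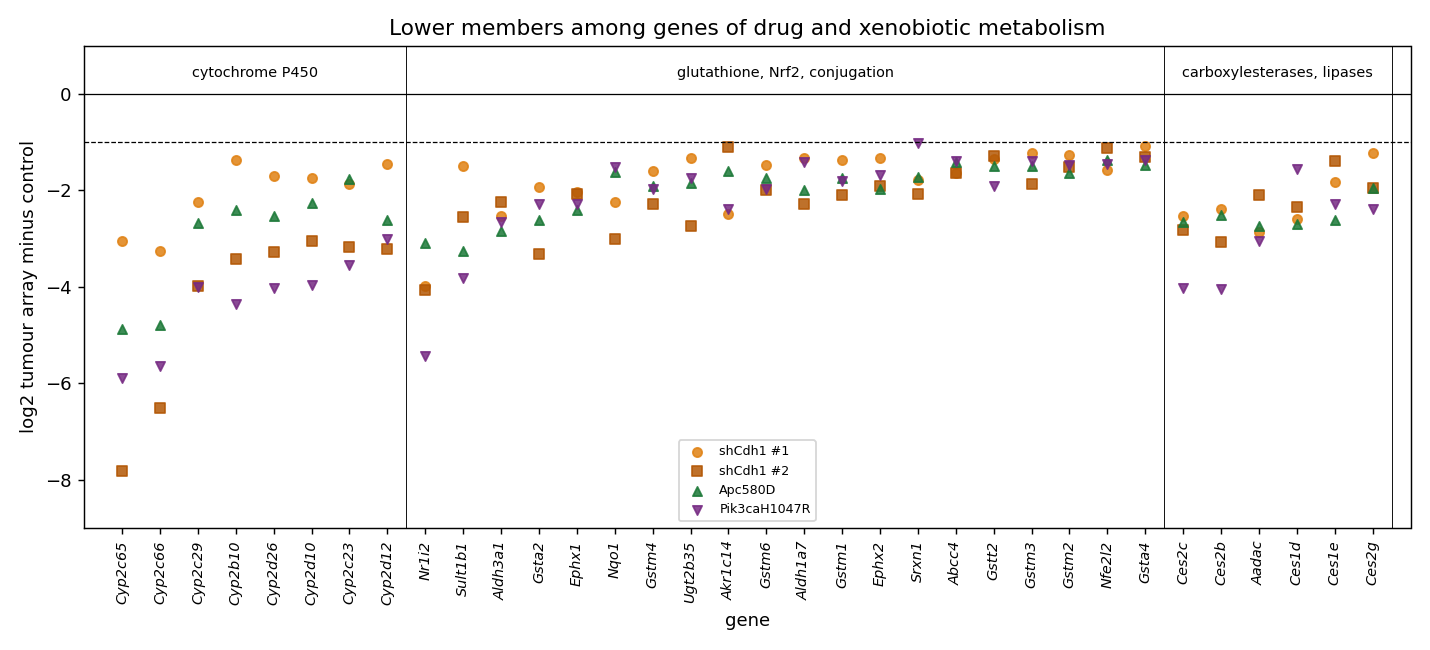
Difference from the control (y axis, log2) on each tumour array for the 34 lower genes of 3 lists: cytochrome P450, glutathione, Nrf2 and conjugation, and carboxylesterases and lipases. Each symbol is 1 array, the solid line is no difference and the dashed line 2-fold lower. Cyp2c65 and Cyp2c66 spread widest, from −3.05 to −7.82 and from −3.26 to −6.50, while most transferases lie close together between −1 and −3.

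Genes of the chief cell, which secretes digestive enzymes, were lower as a group, and 4 of 10 measured were among the 324, none among the 254. All 10 had a mean difference below 0, with a list median of −1.86. Cblif, gastric intrinsic factor, was at 3.97 in the control and −1.46, 0.0, 1.20 and −1.49 in the tumours. Pgc, the enzyme precursor progastricsin, stood at 3.11 in the control and 0.01, 1.30, 0.23 and −2.41 in the tumours, and Clps, pancreatic colipase, at 5.76 in the control and 2.59, 3.66, 2.54 and 1.37 in the tumours. Bhlha15 (Mist1), a transcription factor of secretory cells, was at 2.65 in the control and 0.07, −0.33, 1.06 and −0.25 in the tumours. Levels of Pgc and Clps were lowest in Pik3caH1047R, whereas Cblif was nearly as low in shCdh1 #1.

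Fewer markers of the other gastric lineages met the rule, though most pit and neck cell genes also lay below the control. Of 12 pit cell genes Psca, a surface antigen, met it (2.99 in the control and 0.96, −0.85, −0.14 and −1.54 in the tumours), while 11 had a mean difference below 0 (list median −1.02). Of 8 mucous neck cell genes Glipr1 met it (4.23-fold lower), and 7 had a mean difference below 0 (median −0.55). Of 12 parietal cell genes Kcnj15, a potassium channel (mean 12.2-fold lower), and Car2, a carbonic anhydrase (2.27-fold), did. Of 14 endocrine genes Ddc, which makes serotonin and dopamine, was 7.74-fold lower and Isl1, a homeodomain factor, 5.69-fold. Neither direction was met by any of 16 measured stem and progenitor genes. Among 16 intestinal genes, Krt20 and Fcgbp were higher and Anpep, Fabp2 and Guca2b lower.

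Small proline-rich proteins are structural proteins of squamous and stressed epithelium. Of 8 measured Sprr genes 4 were lower and none higher. The squamous and basal keratinocyte list went the other way, with 1 of 19 genes higher, none lower, 14 with a mean difference above 0 and a median of 0.62. Skin keratinocyte markers, 6 of 7 above background on all arrays, summed to 2.02 in the control and 2.62 to 2.98 in the tumours. Trp63 was the brightest of them on every array and weighs most in that sum. Of the 6, 5 had a mean difference above 0. Krt5 went the other way, at −3.5 in the control and −5.5 to −4.2 in the tumours. Sprr2b was at 7.89 in the control and 5.88, 4.11, 6.53 and 5.63 in the tumours, with shCdh1 #2 lowest, and Sprr2k, Sprr2f and Sprr2g were a mean 5.45, 5.51 and 3.28-fold lower. Such near-identical genes may share probe signal. Ly6d, a surface antigen, stood at 6.21 in the control and 4.52, 1.63, 3.34 and 4.96 in the tumours.

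Several other lower genes belong to lipid use, transport and other functions. Of 36 genes of fatty acid oxidation and the peroxisome, 4 were lower (Plin4, Acox2, Ehhadh and Acot1, 2.53 to 4.53-fold) and none higher. Adipocyte markers summed to −0.44 in the control and −1.80 to −1.26 in the tumours, with 2 of 5 above background on all arrays and Plin1 and Cfd on none. Fabp4 among them was 5.41-fold lower, and the part of these markers was not tested. Of 31 amino acid and nucleoside transporters Slc7a3, Slc1a3 and Slc43a2 were lower by 3.96 to 7.64-fold, but a further Slc43a2 probe differed by a mean of 0.10. The MHC class II gene H2-Eb1 was at −1.50 in the control and −5.58, −4.76, −4.93 and −5.51 in the tumours. It is 1 of only 2 lower genes among 28 of antigen presentation, of which 22 had a mean difference above 0 (list median 0.28). Reg3g, a secreted antibacterial lectin, was at 5.10 in the control and 2.58, 2.62, 2.35 and 2.34 in the tumours and is 1 of 2 lower genes among 29 of mucosal defence and complement. The prolactin-like gene Prl2c5 was at 1.82 in the control and −3.49, −4.54, −3.75 and −4.78 in the tumours (mean 62.3-fold lower). Prl2c1 was at 0.62 in the control and −4.33, −4.80, −3.82 and −4.62 in the tumours (mean 32.3-fold lower). They are the only 2 lower of 13 measured placental prolactin and pregnancy glycoprotein genes. Of the 13, 10 had a mean difference above 0 (list median 0.46). Whether the probes of Prl2c5 and Prl2c1 share signal was not tested. Among genes on no list with the deepest differences were Pgap4, which builds lipid anchors of surface proteins (19.4-fold), Cntn1, a neural adhesion protein (12.2-fold), Mst1 (10.6-fold) and Mesp2 (9.87-fold).

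The p53 target list held 20 of the lower genes and 1 higher gene among 51 measured, so 557 of the 578 genes lie outside it. Its higher gene was Apaf1, a caspase activator (−3.35 in the control and −1.28, −1.56, −1.32 and −1.16 in the tumours), whose second probe differed by a mean of −0.31.

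Higher genes were spread over more lists, with fewer members in each, as the plot of members per list shows. Of 40 measured interferon-stimulated genes, which act in antiviral defence, 6 (15%) were higher and none lower, and 32 had a mean difference above 0. Promoter stretches of 4 of them are shown because these genes were higher together and share a letter pattern of the interferon-stimulated response element. Of the 6 genes, 5 had a RefSeq promoter window (GRCm38.p6, 250 bases before to 50 after the start), and 4 held the pattern, GAAA followed by GAAA with any 2 bases between, on either strand. Capitals mark the matches, overlapping ones joined, and each stretch of 60 bases is written 5′ to 3′ on the gene's strand.
Isg15, chr4:156200850-156200909, minus strand: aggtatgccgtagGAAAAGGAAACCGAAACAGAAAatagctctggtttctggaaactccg
Ifit1, chr19:34640779-34640838, plus strand: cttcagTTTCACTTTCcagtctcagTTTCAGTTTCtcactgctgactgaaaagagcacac
Rsad2, chr12:26456538-26456597, minus strand: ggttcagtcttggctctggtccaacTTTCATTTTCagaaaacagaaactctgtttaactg
Cxcl10, chr5:92349068-92349127, minus strand: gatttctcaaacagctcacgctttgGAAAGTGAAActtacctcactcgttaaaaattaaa

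The matched stretches run on either strand, with the pattern reading forward in Isg15 and Cxcl10 and reversed in Ifit1 and Rsad2. Over all 11607 measured genes with a window, 2.89% held the pattern, against 15 of 193 higher genes (7.77%) and 5 of 252 lower genes (1.98%). A match is a pattern of letters, not evidence of binding.

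Cxcl10, a chemokine, was at −2.19 in the control and 1.54, 2.06, 2.64 and 1.74 in the tumours, a mean 18.2-fold higher. Rsad2, an antiviral enzyme, was at −5.72 in the control and −2.54, −2.86, −0.62 and −2.77 in the tumours, but a further Rsad2 probe differed by a mean of 1.39, against 3.53, and did not meet the rule. Isg15, a ubiquitin-like modifier, was at −1.06 in the control and 0.75, 0.55, 2.63 and 1.95 in the tumours. Ifit1, which binds viral RNA, was at −4.60 in the control and −3.36, −3.19, −0.71 and −1.92 in the tumours, and Ifi47 and Ifi27l2a were 7.15 and 6.04-fold higher. Apc580D was highest for 5 of the 6, all but Ifi27l2a. The median difference over the 40 genes was 0.22 and 0.42 with the hairpins and 1.21 and 0.76 in Apc580D and Pik3caH1047R, an order that runs with slide and cannot be told apart from it. Leukocyte markers summed to 3.55 in the control and 4.0 to 4.39 in the tumours, with 4 of 8 above background on all arrays, and their part in these differences was not tested.

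Genes of NF-kB signalling and chemokines, which drive inflammation, held 5 higher and 1 lower of 42 measured. Tnf, the cytokine TNF, was at −3.42 in the control and −0.52, 0.37, −0.60 and −0.75 in the tumours, and its neighbour Ltb, lymphotoxin beta, at −2.85 in the control and −0.89, −0.26, 2.32 and −0.64 in the tumours. Vcam1, an adhesion molecule for leukocytes, was at −4.63 in the control and −2.34, 2.19, −1.02 and −1.57 in the tumours, with shCdh1 #2 well above the other tumours. Ccl5, a chemokine, and Traf1, a signalling adaptor, were 11.3 and 4.05-fold higher. Cxcl17, a mucosal chemokine, was 6.32-fold lower. Of 19 TNF superfamily genes Tnfrsf11b was also higher (4.01-fold) and Tnfrsf18 lower (6.06-fold).

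Immediate early and ERK feedback genes held 5 higher and no lower gene of 42, and 36 of the 42 had a mean difference above 0. Ier3 was at 2.27 in the control and 4.13, 4.17, 3.42 and 4.31 in the tumours and Dusp4, a phosphatase that switches off MAP kinases, at 1.36 in the control and 3.30, 3.06, 2.78 and 3.01 in the tumours. Dusp10, Klf10 and Maff were 2.76, 2.38 and 2.29-fold higher, so all 5 differences were modest and even across arrays. With arrays scaled on their median, 2 of the 5 genes still met the rule.

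Heat shock chaperones, which refold damaged proteins, held 3 higher genes of 28, and the list's median was 0.08, close to that of all genes. Hspb1, small heat shock protein 27, was at −0.60 in the control and 2.0, 1.58, 3.31 and 3.98 in the tumours. Hspa1a and Hspa1b, near-identical neighbours for HSP70, were at −0.18 in the control and 3.23, 1.65, 2.60 and 3.25 in the tumours and at −0.16 in the control and 2.74, 2.0, 1.67 and 2.42 in the tumours, and their probes may share signal. The windows of all 3 genes held GAANNTTC, which is also in 5.85% of all windows, and the stretches of Hspa1a and Hspa1b shown here are letter for letter the same. Capitals mark the matches.
Hspa1a, chr17:34972227-34972286, minus strand: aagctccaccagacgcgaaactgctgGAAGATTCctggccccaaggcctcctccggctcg
Hspa1b, chr17:34959309-34959368, minus strand: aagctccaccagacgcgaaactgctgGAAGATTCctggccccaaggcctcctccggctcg
Hspb1, chr5:135887796-135887855, plus strand: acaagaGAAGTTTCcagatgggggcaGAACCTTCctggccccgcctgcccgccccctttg

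The Hspb1 stretch carries the pattern at separate places, while the pair of HSP70 genes carry 1 each in the stretch. Among the lower detoxification genes the antioxidant pattern TGACNNNGC was in 3 of 16 windows (Nfe2l2, Abcc4 and Srxn1), against 14.3% of all windows.

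**Figure D3:**
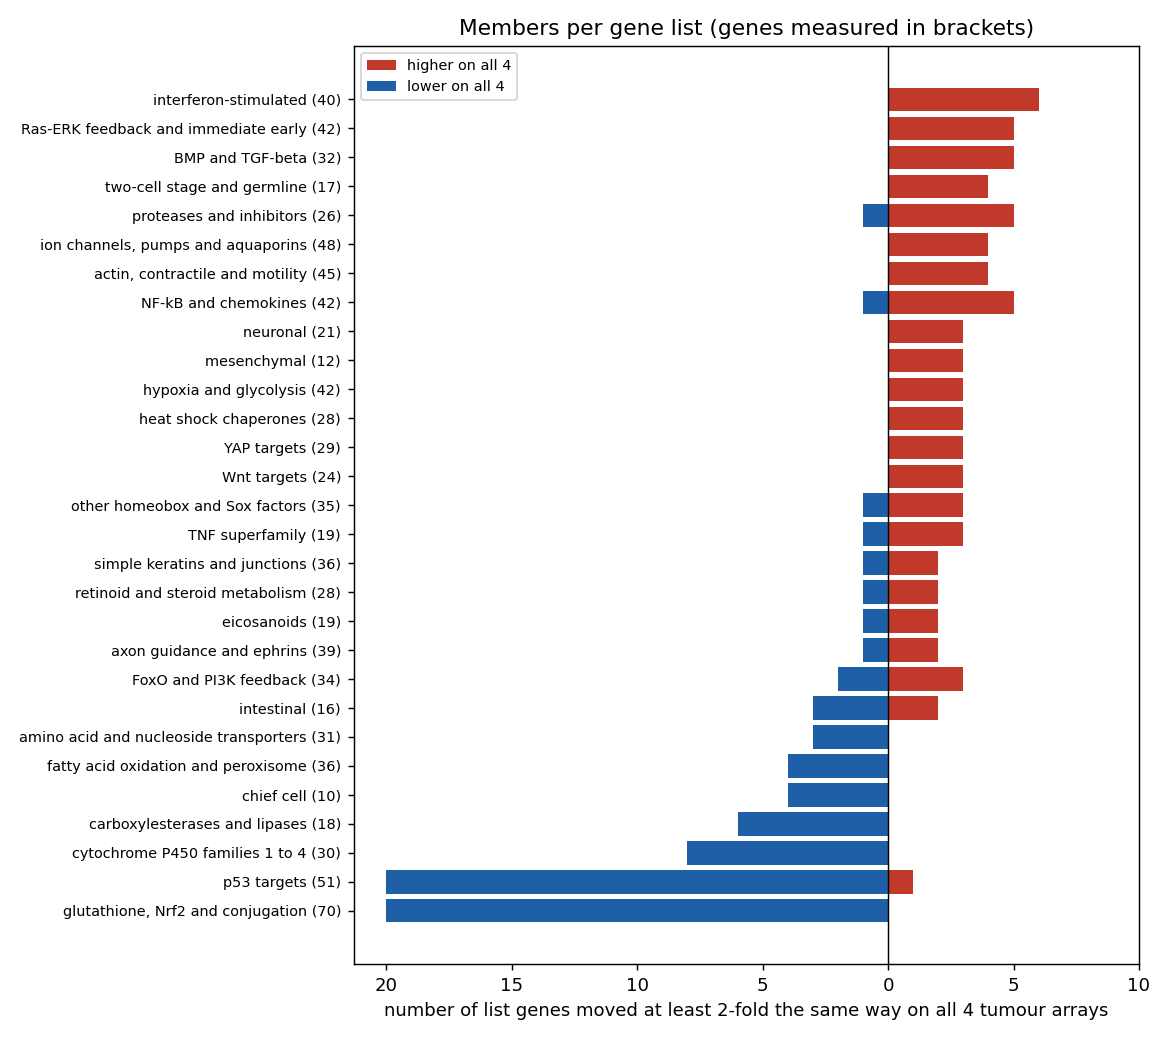
Number of genes higher (red, to the right) and lower (blue, to the left) on all 4 tumour arrays in each of the 29 gene lists with at least 3 such genes, with the number measured in brackets. The longest bars are lower genes of glutathione, Nrf2 and conjugation (20 of 70) and p53 targets (20 of 51), and the longest to the right is interferon-stimulated genes (6 of 40).

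Secreted signals of the BMP and TGF-beta families, which set cell fate and growth, held 5 higher genes of 32 and none lower. Bmp4 was at −0.45 in the control and 0.88, 2.23, 1.73 and 3.27 in the tumours, Tgfb2 at −4.97 in the control and −3.12, 0.14, −0.50 and −3.20 in the tumours, and the activin antagonist Fst at −4.86 in the control and −2.34, −2.71, −0.37 and −1.0 in the tumours. Tgfb2 was highest in shCdh1 #2 and Apc580D, and Fst in Apc580D. Bmp6 and Ltbp3, which stores TGF-beta in matrix, were 4.65 and 3.54-fold higher. Of 24 Wnt ligands and modulators Wnt7a and Wnt7b were higher, at −3.12 in the control and −1.72, −0.59, 1.38 and 0.23 in the tumours and −1.93 in the control and −0.04, 1.08, 0.65 and 1.64 in the tumours. Of 24 Wnt target genes Mmp7, Bmp4 and Tcf7 were higher. Further Tcf7 probes differed by means of 1.18 and 0.93 and did not meet the rule, whereas those of Mmp7 and Bmp4 met it.

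Genes for matrix, proteases and cell shape were among the highest. Mmp7, matrilysin, a protease of glandular epithelium, was at −3.31 in the control and 1.15, 5.15, 3.46 and 6.22 in the tumours, a mean 158-fold higher (SD 2.21). Plau, Adamts1, Adamts4 and the inhibitor Timp1 were 6.54, 6.46, 5.30 and 3.38-fold higher, while the inhibitor Serpine2 was 7.07-fold lower. Htra1, a secreted serine protease, was at −4.49 in the control and −1.34, 0.30, 2.55 and 0.91 in the tumours. Fn1, fibronectin, stood at 0.62 in the control and 2.45, 4.49, 5.03 and 3.30 in the tumours. Of 12 measured mesenchymal genes Prrx2, Fn1 and S100a4 were higher and none lower (list median 1.17). Fibroblast markers summed to −3.58 in the control and −3.27 to −1.90 in the tumours, and their part was not tested.

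Prrx2, a homeodomain factor of mesenchyme, was at −4.63 in the control and −2.70, 2.02, 1.85 and 2.69 in the tumours, with shCdh1 #1 far below the other tumours. A further Prrx2 probe differed by a mean of only 1.56 and did not meet the rule, and with all probes averaged the mean difference was 3.58 in place of 5.60. Myl9, a myosin light chain, was at −4.40 in the control and −1.08, 1.53, −0.08 and 1.89 in the tumours, and Rdx, which ties actin to the membrane, at −3.57 in the control and −1.51, 2.13, 1.06 and 2.68 in the tumours. Both had shCdh1 #1 lowest among the tumours. Map2 and Map1b, microtubule-binding proteins, were 7.63 and 4.79-fold higher, so that 4 of 45 actin and motility genes were higher and none lower. Tm4sf1, a tetraspanin-like membrane protein, was at −4.29 in the control and 2.33, 1.85, 0.91 and 2.36 in the tumours. Cldn3, a tight junction claudin, was at −1.04 in the control and 3.49, 3.17, 3.15 and 5.29 in the tumours, and Krt20, a keratin of mature gut surface cells, at −0.71 in the control and 4.94, 1.66, 2.65 and 4.50 in the tumours.

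The transcription factors Onecut1 and Onecut2, which act in liver and pancreas development, had nearly the same level on all 4 tumour arrays. Onecut1 was at −5.10 in the control and 0.95, 0.82, 0.91 and 1.05 in the tumours (mean 65.5-fold, SD 0.10), and Onecut2 at −1.76 in the control and 3.98, 3.96, 4.01 and 4.22 in the tumours (56.1-fold, SD 0.12). With normexp the mean difference of Onecut1 was 4.39 in place of 6.03, and that of Onecut2 5.58 in place of 5.81. They were the only 2 of 29 measured foregut and gastric transcription factors to meet the rule. Cdkn2a, which encodes p16Ink4a and p19Arf, was similarly even, at 2.07 in the control and 6.01, 5.98, 5.75 and 5.74 in the tumours.

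The proton channels Otop3 and Otop2 are neighbours, with Ush1g between them, and all 3 were higher. Otop3 was at −5.52 in the control and −0.10, 0.03, 0.12 and 0.68 in the tumours, Otop2 at −5.56 in the control and −1.83, 0.38, −1.03 and 1.78 in the tumours, and Ush1g at −1.76 in the control and −0.08, 0.06, 0.58 and 1.0 in the tumours. With normexp the mean differences were 3.76 for Otop3, in place of 5.70, and 3.54 for Otop2, in place of 5.39. Otop3 was even across tumours, whereas Otop2 varied by 3.62 on the log2 scale.

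Genes of the two-cell embryo held 4 higher of 17 measured and none lower. Tcstv3 was at −4.87 in the control and 1.72, −1.94, 3.23 and 2.67 in the tumours, Zscan4b at −5.67 in the control and −0.13, −4.10, 1.03 and 0.77 in the tumours and Zscan4f at −5.38 in the control and −0.19, −3.88, 1.16 and 0.96 in the tumours, with Usp17la 12.1-fold higher. In all 4 genes shCdh1 #2 lay nearest the control and the other tumours lay above it. These genes belong to families of near-identical copies whose probes may share signal.

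Aldh1a3, which makes retinoic acid, was 3.35-fold higher, whereas the retinol dehydrogenase Adh7 was 3.83-fold lower. Ptgs1, cyclooxygenase-1, was at −1.99 in the control and 2.17, 3.05, 3.04 and 2.17 in the tumours, and Alox5ap, needed for leukotriene synthesis, was 5.54-fold higher. Of 42 genes of hypoxia and glycolysis, Eno2, Stc1 and Vegfa were higher. Vegfa, the vascular growth factor, was at 3.13 in the control and 5.76, 5.02, 4.67 and 6.04 in the tumours, but none of its 3 further probes was 2-fold higher on all 4 arrays (means 0.68 to 1.51). St8sia4, a polysialic acid synthase on no list, was at −4.96 in the control and −0.90, 0.79, 0.04 and 1.04 in the tumours.

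**Figure D4:**
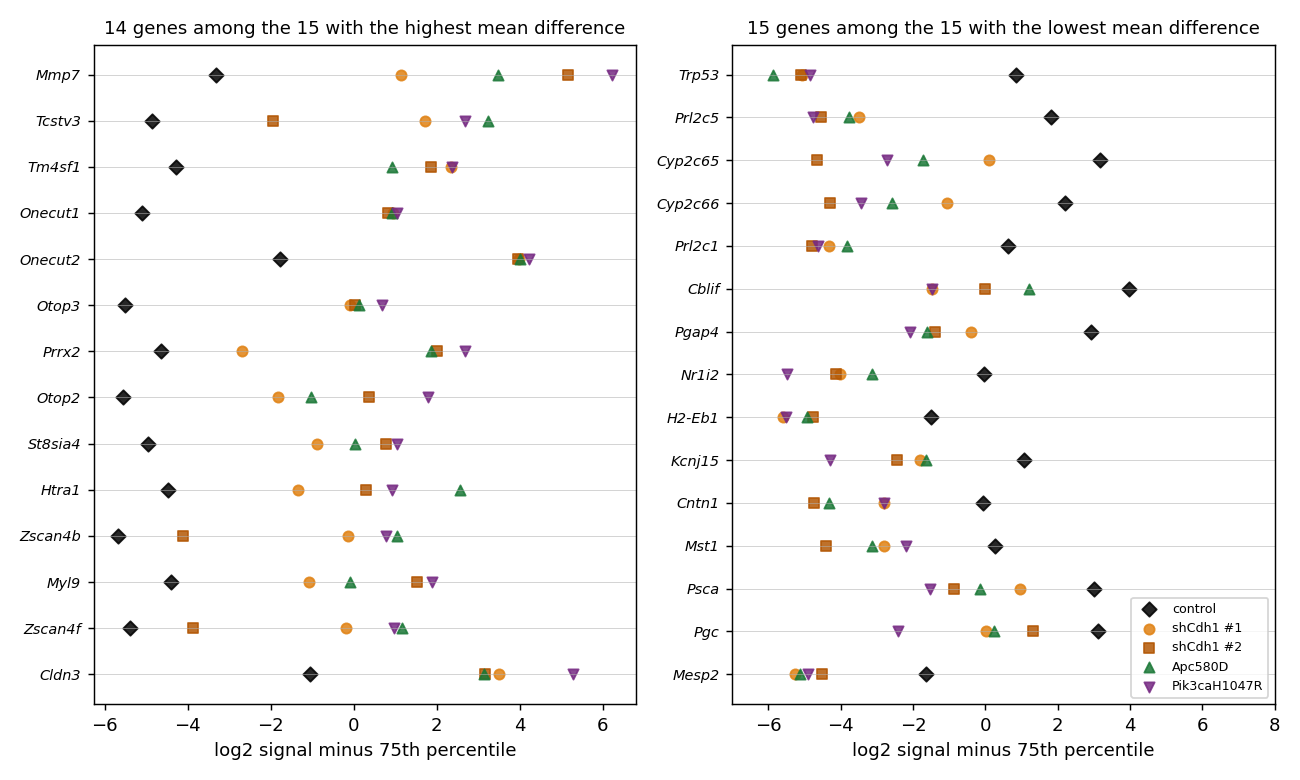
Levels (x axis, log2 signal minus the 75th percentile) of 14 of the 15 genes with the highest and of the 15 with the lowest mean difference, outside p53 targets and clone-type names. Each symbol is 1 array and the black diamond is the control. Onecut1 and Onecut2 have all tumour arrays together, whereas those of Mmp7, Tcstv3 and Cyp2c65 are spread over more than 4 log2 units.

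Of the 64 gene lists, 14 held no gene of the 578. Among these were Notch (19 measured), DNA replication (50), DNA repair (61), the cytosolic ribosome (66), the respiratory chain (50), imprinted genes (26) and chromatin regulators (60). Of 53 mitotic genes Cenpa alone was at least 2-fold higher on every array (2.17-fold), although 51 of the 53 had a mean difference above 0 and the list median was 0.70. In all, 171 of the 578 genes were on a list and 407 on none, against 1698 of all 14581 measured genes on a list. The lists were chosen with earlier results of these data known.

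The size of the differences varied more among the higher genes. The range over the 4 tumour arrays had a median of 1.37 on the log2 scale for higher genes, 0.89 for lower genes and 0.54 for all others. Higher genes had their largest difference in Pik3caH1047R in 119 cases and their smallest in shCdh1 #1 in 122. Their median difference was 1.72, 1.99, 2.20 and 2.51 on the tumour arrays. Medians of the lower genes were closer, at −1.73, −1.82, −1.58 and −1.94. Bex1, a neuronal gene, had the widest range among higher genes, at −2.64 in the control and −1.54, 1.41, 5.58 and −0.24 in the tumours. Eno2, neuronal enolase, was at −5.24 in the control and −3.26, −1.35, −2.24 and 3.27 in the tumours, so 1 tumour stood out for each gene, Apc580D for Bex1 and Pik3caH1047R for Eno2.

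**Figure D5:**
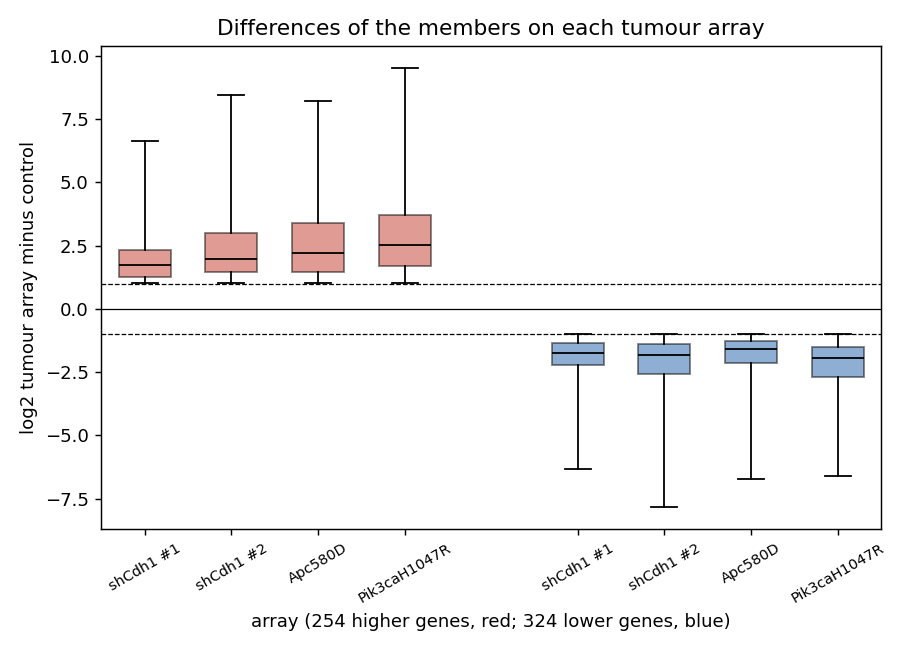
Difference from the control (y axis, log2) on each tumour array for the 254 higher and 324 lower genes. Boxes give quartiles and median, whiskers the full range, and dashed lines the 2-fold threshold that every gene passes by rule. Medians of the higher genes run from 1.72 in shCdh1 #1 to 2.51 in Pik3caH1047R, and those of the lower genes from −1.58 to −1.94.

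Differences among the tumours were tested with limma over all 14581 genes, the 2 shCdh1 arrays against Apc580D and Pik3caH1047R. No gene passed at an adjusted p of 0.05 (0%), with 593 genes (4.07%) at an unadjusted p under 0.05. Cdh1 had the smallest adjusted p, 0.0922 in limma. At the unadjusted level stood 30 of the higher genes (11.8%), of which 28 were lower in the shCdh1 pair, and 15 of the lower genes (4.63%). Each of the 578 genes had to pass on every tumour array, so the rule drew on the same tumour values. Their shares here are description, not a test. Genotype and slide coincide in this contrast and cannot be told apart. In the contrast the rule did use, all 4 tumours against the control, 7 genes (0.048%) passed limma: Onecut1, Onecut2, Otop3, Cdkn2a, Trp53, Ak1 and Prl2c1. They are all among the 578, and nothing is read from this, because the genes were chosen on the same differences.

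Genes were represented by their brightest probe, so further probes of the same gene give a second measurement. The higher genes had 75 further probes in 61 genes, of which 37 (49.3%) were also at least 2-fold higher on all 4 arrays, against 1.28% of 6978 further probes of all genes. The lower genes had 79 in 68 genes, of which 43 (54.4%) were also lower, against 1.26%. The mean difference had the same sign for 69 of 75 and 73 of 79 probes. These probes read the same RNA on the same arrays and so check the probe, not the sample. Cdkn2a (4.21), Fn1 (2.94 and 2.33) and Tnf (1.68) had further probes with mean differences in the same direction. Jmjd4 (−0.33 and −1.05) and Wdfy1 (−0.12 and −0.21), both higher by their brightest probe, had further probes on the other side of 0.

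Neighbouring genes were often listed together. By RefSeq gene order, 64 of 323 placed lower genes (19.8%) stood next to another lower gene, in 28 runs, and 25 of 254 higher genes (9.84%), in 12 runs. No share for other sets of measured genes was worked out, so these counts have no background. Of the 6 lower runs of 3 or more, 5 were families: Gstm6 to Gstm4, Cyp2c65 to Cyp2c29, Ces2b to Ces2g, Sprr2b to Sprr2g and Ttc30b to Ttc30a1. The Gsta4 run also holds Gsta2 and a clone-type name. Among pairs were Ces1d and Ces1e, Cyp2b10 and Cyp2b9, Ugt2b35 and Ugt2b38, Nat8 and Nat8f2, and Cd55 and Cd55b. Family members have similar sequences, and whether their probes share signal was not tested.

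In the promoter windows 14 letter patterns were searched on both strands. Beside the interferon pattern, AGATAA, which GATA factors bind, was in 15% of 193 higher, 7.54% of 252 lower and 7.25% of all windows, and TGANTCA (AP-1) in 10.4%, 8.73% and 5.70%. TATAAA, the core promoter box, was in 13.5%, 13.1% and 8.65%. ATTGAT, the core that Onecut factors bind, was in 6.22%, 2.38% and 4.49%. Closer to the share of all windows were the NF-kB pattern (9.84% and 8.33% against 9.69%), GGAATG (TEAD; 13% and 11.9% against 12.4%), AGGTCA (nuclear receptor half-site; 15% and 13.1% against 13.1%) and the p53 half-site (6.22% and 9.52% against 7.33%). TGACGTCA (CRE) was in 1.55% and 1.59% against 3.10%, ATCAAAG (TCF) in 3.63% and 3.97% against 2.72%, and TGTTTAC (FOXA) in 1.55% and 3.57% against 2.69%. GAANNTTC was in 7.77% and 8.73%, and TGACNNNGC in 11.4% and 12.3%. Windows of higher and lower genes held a median of 14 and 13 CpG, against 19 for the other genes. Median GC was 59.3% and 57.7%, against 60%. Whether base composition has a part in these shares was not tested. None of these shares was tested.

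A further 301 genes were higher and 163 lower by the same folds but not well above background on every array. Of these, 124 were above background on all 4 tumour arrays and not in the control, and 84 in the control and on no tumour array.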

How the data were processed

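Total RNA of 5 organoid samples was labelled with Cy3 and hybridised to 1 array each, per the labels' protocols. Scans were read with Agilent Feature Extraction 11.0.1.1, as the submitters' processing notes state. The deposited processed intensity of a spot already had background removed and spatial trends taken out by that software, and arrays were not normalized to one another, per the file headers. The authors also deposited a table of log2 values. For each tumour its difference from the control matched the scanner values (slope and correlation both 1), which settles scale and direction, whereas the probe-wise centring is not known. Column medians of that table were −0.057, 0.073, 0.031, −0.079 and 0.023 (control, then the tumours).

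The log2 intensity of each non-control spot was reduced by its array's 75th percentile. Outlier spots (78 to 114 per array) were left out, no spot was saturated, and spots of a probe were averaged. Of 56605 probes, 34566 were named with 1 symbol through RefSeq accessions (GRCm38.p6 table, names and gene order only), 22039 had none and 32 lacked a value. Each of 23779 genes was represented by its brightest probe. A gene was measured if that probe was well above background on all 5 arrays.

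limma 3.58.1 in R 4.3.3 was used (lmFit, eBayes, Benjamini-Hochberg adjustment over 14581 genes), tested on simulated data, with 3 residual degrees of freedom for tumours against control and 2 within tumours. In the first fit the single control array borrows its spread from the tumour arrays. Nothing says that samples came from separate animals, so p-values measure only the spread between these samples. The text names the targeted genes, the 15 highest and 15 lowest mean differences outside p53 targets and clone-type names, and the 4 largest members per list and direction; 1 of these genes is not reported here. Others, such as further members of a list, neighbours and disagreeing probes, were chosen after their values were seen. Genes and lists were chosen with earlier results of these data known. Alternatives were median, quantile and normexp processing (median spot signal, offset 50), the authors' table, all probes, dim spots, arrays left out, slide and other folds.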

Additional observations from a re-analysis of the deposited data

Results flagged for a closer look

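On the 30 genes with the highest and lowest mean differences and 29 gene lists, the 4 tumour arrays were searched for 1 array far from the other 3 (Dixon's criterion). Chance marks about 1 in 20 such groups. Onecut2 differed by 5.99 in Pik3caH1047R against 5.73 to 5.77 in the others, a small gap that stands out because the others nearly coincide. Prrx2 differed by 1.93 in shCdh1 #1 against 6.48 to 7.33. Cldn3 differed by 6.33 in Pik3caH1047R against 4.19 to 4.53. The chief cell list had a median difference of −1.01 in Apc580D against −2.02 to −1.87, and the actin and motility list 0.49 in shCdh1 #1 against 0.64 to 0.66.

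Y-linked genes were outside the comparisons and stood above the control on 1 array. In Pik3caH1047R the level of Ddx3y was −2.40, of Eif2s3y 1.35, of Kdm5d −1.86 and of Uty −3.15, while none was above background on the other 4 arrays, where they lay between −8.39 and −6.09.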

How the results depend on the processing

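Of 330 alternative values for the 30 named genes none changed sign, and 315 stayed within 1 SD of the 4 differences, a lenient bound where tumours vary. Where tumour arrays were left out or dim genes kept, the rule had fixed the sign in advance. Those settings therefore cannot check it. With normexp the mean fold was smaller by over 1.5 times for 23 of the 30 genes, and for none was it larger by as much. As mean log2 differences, examples were St8sia4 (3.57 in place of 5.20), Zscan4b (3.27 in place of 5.07) and Prl2c5 (−4.81 in place of −5.96). Others were Prl2c1 (−3.66 in place of −5.01), H2-Eb1 (−2.04 in place of −3.70) and Mesp2 (−1.99 in place of −3.30). Of 150 list counts 134 stayed within 1.5 times. The count of higher genes was 254 and became 137 with normexp, of which 136 were among the 254. Accepting genes above background on any array gave 555 higher and 487 lower. Using only the shCdh1 arrays, on the control's slide, gave 382 and 542, a 1.5-fold threshold 716 and 839, and a 4-fold threshold 56 and 47. Leaving out 1 tumour array gave 277 to 439 higher and 356 to 448 lower genes, which by construction hold all of the 578. limma calls between tumours and control were 7 (4 higher, 3 lower), 20 with median scaling (7 higher, 13 lower), 21 with normexp (8 and 13), 21 with dim genes kept (4 and 17), 2 with slide as a block and 3 to 6 with 1 tumour left out, 3 of them without shCdh1 #2. Between shCdh1 and the other tumours they were 0, also with 1 array left out (0 in each case), and 1 with normexp. At 1.5-fold, 73.3% and 70.9% of further probes moved with their higher or lower gene. The cause of these shifts was not tested. No paired analysis was possible because the groups compared share fewer than 2 replicate numbers. Scanner files gave no mean spot signal, so normexp used the median signal. One control array limits every difference.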
